A study of Mus musculus with 18 samples.

Results

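Fenofibrate was fed to mice that lack a functional Ppara gene, and their liver RNA was set against that of Ppara-null mice on a normal diet. The 6 libraries of this comparison, out of 18 in the series, were chosen by their labels for genotype and diet. Liver polyadenylated RNA was sequenced from mice of a mixed C57BL/6 and SV129 background, all 8 weeks old, that were either Ppara-/- (Ppara-null) or Ppara+/+ (wild type). They had eaten a normal diet, a chow with 0.5% fenofibrate or a chow with 0.1% Wy14,643 for 48 h, with 3 libraries in each of 6 groups. Every library was a pool of livers. The Ppara-null control pools held 4, 4 and 5 livers and the Ppara-null fenofibrate pools 3, 3 and 4. Of the groups used beside them, the wild type control pools held 5 livers each, the wild type fenofibrate pools 3 each and the Ppara-null Wy14,643 pools 3, 3 and 4. All Ppara-null groups, controls included, carry the same null genotype. The sex of the mice is not given in the sources used here, and p-values measure the spread between pools.

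PPARA is a nuclear receptor that fatty acids and fibrate drugs activate. With its partner RXR it switches on genes of fatty acid uptake, of peroxisomal and mitochondrial oxidation and of ketone body production in the liver. Other nuclear receptors of hepatocytes, CAR (Nr1i3) and PXR (Nr1i2), respond to many foreign compounds and drive cytochrome P450 enzymes of the Cyp2b, Cyp2c and Cyp3a families, glutathione transferases and drug transporters. What fenofibrate does in liver without PPARA is the question this comparison addresses.

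The 6 libraries held 92.9 to 120 M counts (M, 1e6) over loci with a gene identifier. Mup genes, which encode urinary pheromone carriers, took 56.5% to 64.5% of these, which left 37.3 to 45.9 M counts for the other genes. Log CPM (counts per M of the TMM-scaled library) correlated at 0.985 to 0.988 between control pools and at 0.977 to 0.982 between fenofibrate pools, across genes. Hepatocyte markers were abundant, and Fabp4, Plin1, Cfd, Retn and Lep of the adipocyte list were listed at 0 in all 6 libraries. A 0 can come from the counting, since 95.2% of loci that lie inside another locus were at 0 in all libraries, against 26.4% of the others. Of the 8 hepatocyte markers 1 was called lower (Trf), and their summed CPM was 48880 to 56657 in control and 37243 to 43089 in fenofibrate libraries. Fewer cells of a type and less RNA per cell cannot be told apart in such bulk samples.

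Ppara itself had 13.6, 13.8 and 18.2 CPM in the control libraries and 12.3, 12.8 and 20.2 CPM in the fenofibrate libraries. These were 1134 to 2328 counts per library, and the 2 diets overlapped. Wild type control livers had 59.0 ± 7.88 CPM and wild type fenofibrate livers 74.4 ± 14.8 CPM (SD, n = 3 each), above every Ppara-null library. Counts per gene do not show which exons the remaining reads came from, so they show less Ppara RNA and not the disruption itself.

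Fenofibrate changed few genes in Ppara-null liver. Of 14241 genes tested 220 (1.54%) were called at an adjusted p below 0.05, of which 142 (0.997%) were higher and 78 (0.548%) lower (edgeR quasi-likelihood test). A change of at least 2-fold was fitted for 71 of the rises and 9 of the falls. The rises held cytochrome P450 and glutathione transferase genes, Cyp2c55 and Cyp2b10 among them, and the falls held secreted liver proteins, Mug2, Mug1 and C9 among them. In the fit of the 6 libraries alone 33 genes were called (30 higher, 3 lower), of which 28 were among the 220. On library totals, without TMM scaling, 95 genes were called (86 higher, 9 lower). Leaving out control replicate 1 gave 55 calls, control replicate 2 gave 54, control replicate 3 gave 105 and fenofibrate replicate 2 gave 482.

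**Figure D1:**
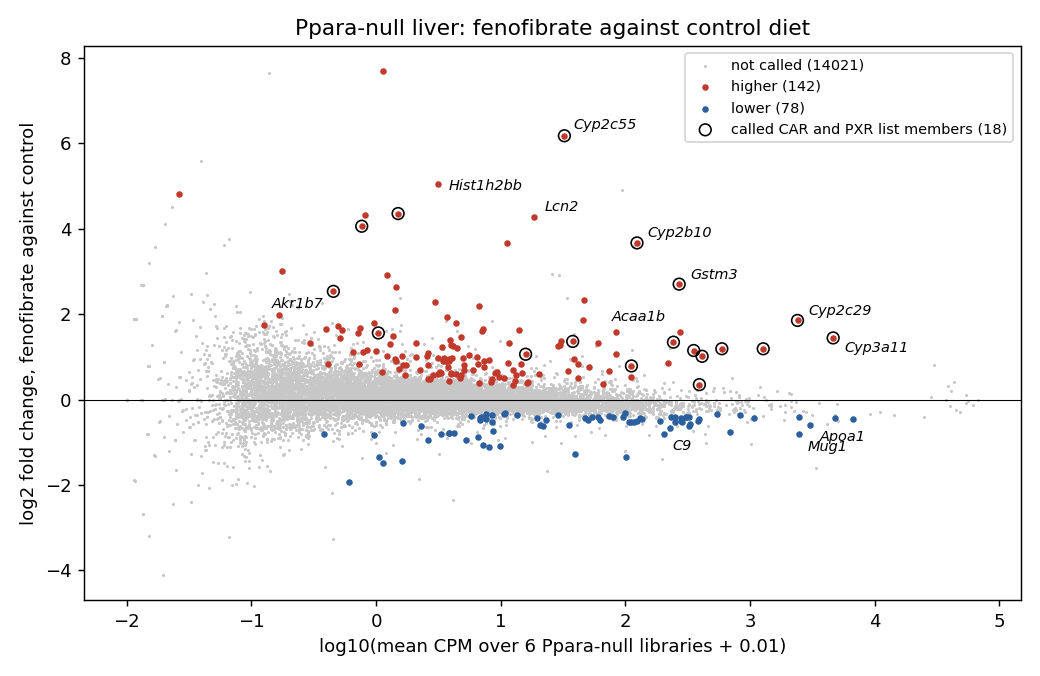
Fitted log2 fold change of fenofibrate against control (vertical axis) by mean level in the 6 Ppara-null libraries (horizontal axis, log10 CPM) for 14241 genes. The 142 rises are in red, the 78 falls in blue and the 18 called members of the CAR and PXR list are ringed. The ringed genes lie above 0 at all levels, from Akr1b7 at under 1 CPM to Cyp3a11, the most abundant.

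The pathway list with the most calls was that of CAR and PXR xenobiotic genes. Of its 46 members, all tested, 18 rose and none fell (median log2 difference 0.46, against 0.01 over all genes). The counts at an unadjusted p below 0.05 were 29 higher and 0 lower, and DESeq2 called 21 higher and 0 lower. Over all genes 8.58% were higher and 6.62% lower at an unadjusted p below 0.05, and DESeq2 called 1.87% higher and 1.8% lower, shares against which such counts are to be read for every list. In 29 of 46 members the 3 fenofibrate libraries lay above the 3 control libraries, which held for 8.15% of all genes. The summed CPM of the list was 9282 to 10010 in control and 20250 to 20699 in fenofibrate libraries, with Cyp3a11, Cyp2c29 and Gstm1 among its abundant members. Without control replicate 1 the list had 9 rises.

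Cyp2c55, an epoxygenase of arachidonic acid in mice, is encoded at chr19:39006938-39042693 (mm10, plus strand). It had 0.898, 0.925 and 0.824 CPM in the control libraries and 76.8, 53.0 and 61.6 CPM with fenofibrate. The groups were far apart, with a log2 fold change of 6.17 (SE 0.23, adjusted p = 9.65e-12). Cyp2b10, the standard target gene of CAR in mouse liver, lies at chr7:25897620-25926624 (plus strand). It had 5.89, 19.7 and 28.6 CPM in control libraries and 273, 190 and 225 CPM with fenofibrate (log2 fold change 3.67, SE 0.39, adjusted p = 2.81e-05). Control replicate 1 was lowest, and the lowest fenofibrate pool was still above the highest control pool. Cyp3a11, the standard target of PXR and a major drug-oxidising enzyme, rose from 2377, 2765 and 2336 CPM to 6510, 7460 and 6344 CPM (log2 fold change 1.44, SE 0.16, adjusted p = 3.48e-05). The groups did not overlap, and each varied little within itself.

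The RefSeq promoters of these 3 genes and of Cyp2c29 are shown because the genes rose together. Each runs from 250 bases before to 50 bases after the annotated start, 5′ to 3′ on the gene's strand (GRCm38.p6, the assembly of mm10). Capitals mark AGGTCA on either strand, the 6-base word that single nuclear receptors bind, and AGNTCANNNNAGNTCA on either strand, a pair of such words spaced by 4 bases, which may overlap the first. The windows are chr19:39006769-39007068 (plus strand) for Cyp2c55, chr7:25897408-25897707 (plus) for Cyp2b10, chr19:39286835-39287134 (plus) for Cyp2c29 and chr5:145879805-145880104 (minus) for Cyp3a11.
Cyp2c55: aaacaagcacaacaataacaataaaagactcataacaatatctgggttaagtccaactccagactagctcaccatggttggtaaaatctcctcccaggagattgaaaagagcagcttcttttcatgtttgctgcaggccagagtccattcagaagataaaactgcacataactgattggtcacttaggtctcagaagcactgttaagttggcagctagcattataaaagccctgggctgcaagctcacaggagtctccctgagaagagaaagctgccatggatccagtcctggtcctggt
Cyp2b10: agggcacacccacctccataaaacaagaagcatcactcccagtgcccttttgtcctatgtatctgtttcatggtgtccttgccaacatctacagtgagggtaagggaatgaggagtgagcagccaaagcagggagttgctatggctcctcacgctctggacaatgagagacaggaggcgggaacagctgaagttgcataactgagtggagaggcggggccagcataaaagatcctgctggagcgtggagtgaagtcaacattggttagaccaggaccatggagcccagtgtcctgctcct
Cyp2c29: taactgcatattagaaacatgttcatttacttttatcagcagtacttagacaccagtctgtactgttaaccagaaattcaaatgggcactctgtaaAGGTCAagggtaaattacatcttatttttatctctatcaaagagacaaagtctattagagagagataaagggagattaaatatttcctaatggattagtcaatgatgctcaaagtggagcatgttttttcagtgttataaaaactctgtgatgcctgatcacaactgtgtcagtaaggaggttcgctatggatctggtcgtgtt
Cyp3a11: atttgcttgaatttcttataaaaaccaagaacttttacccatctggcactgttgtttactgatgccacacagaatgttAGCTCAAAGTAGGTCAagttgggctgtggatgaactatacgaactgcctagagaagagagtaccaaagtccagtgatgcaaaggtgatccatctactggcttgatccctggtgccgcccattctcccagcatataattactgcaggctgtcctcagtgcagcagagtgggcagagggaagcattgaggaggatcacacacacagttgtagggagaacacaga
The Cyp3a11 window held the spaced pair, whose second word is its AGGTCA, and the Cyp2c29 window held 1 AGGTCA. The windows of Cyp2c55 and Cyp2b10 held neither set of letters. AGGTCA was found in 6 of the 17 called list members with a promoter entry and in 16.3% of all 32851 promoters, and the spaced pair in 1 of 17 and in 0.125% of all. Cyp2c54 had no entry. A match is a description of letters and not of a bound site.

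The other called P450 genes of the list lie beside these on chromosomes 19, 7 and 5. Cyp2c29 rose from 999, 930 and 1193 CPM to 3725, 3876 and 3666 CPM (log2 fold change 1.85, SE 0.17, adjusted p = 5.99e-06). Its neighbours Cyp2c37 (log2 fold change 1.34, SE 0.17), Cyp2c50 (1.19, SE 0.17) and Cyp2c54 (1.01, SE 0.18) rose too, with adjusted p of 4.16e-04, 0.00117 and 0.00832. These 4 genes, like Cyp2c55, encode enzymes that oxidise drugs and fatty acids. Cyp2b9 had 0.101, 0.0617 and 0.0927 CPM in control and 0.108, 1.28 and 2.90 CPM in fenofibrate libraries. Fenofibrate replicate 1 was near the controls, and the gene's log2 fold change of 4.06 (SE 0.78, adjusted p = 0.0135) came from replicates 2 and 3. Cyp2b13 (0.0103 to 0.309 CPM in control, 0.711 to 6.17 CPM with fenofibrate) also rose, with a log2 fold change of 4.35 (SE 0.77, adjusted p = 0.00807), as did Cyp3a41a (1.36, SE 0.29, adjusted p = 0.0248). These families hold near-identical copies, the handling of reads that fit several copies is not given in the sources used here, and the split of counts between Cyp2b9, Cyp2b13 and Cyp2b10, within Cyp2c37, Cyp2c50 and Cyp2c54, and between Cyp3a41a and Cyp3a41b is therefore uncertain.

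**Figure D2:**
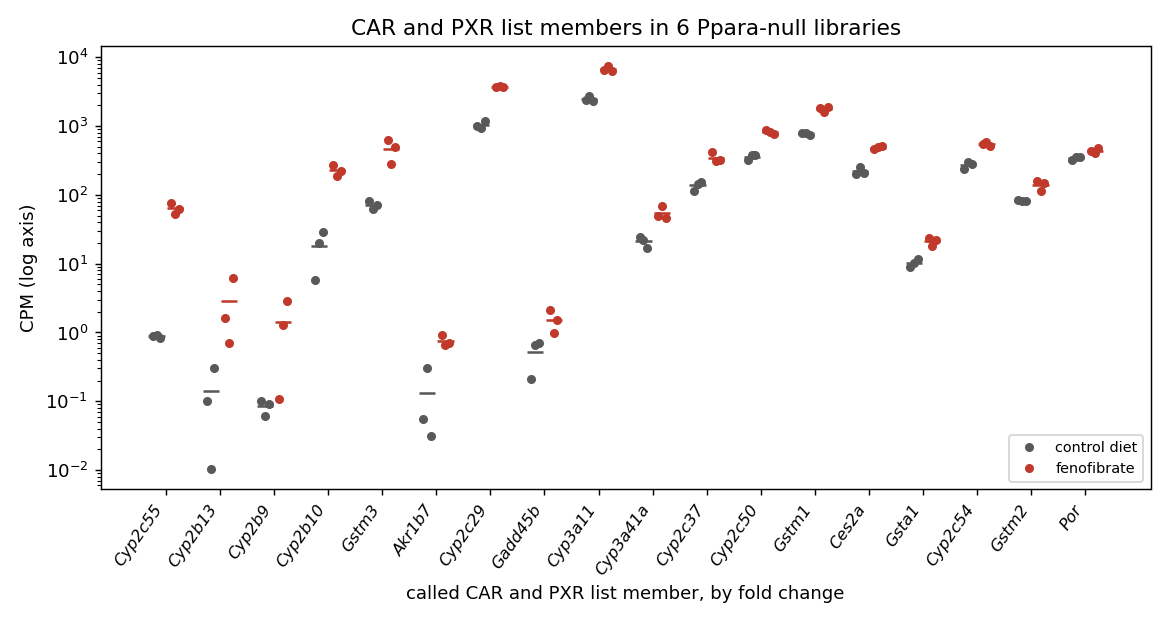
CPM (log axis) of the 18 called CAR and PXR list members in each of the 3 control (grey) and 3 fenofibrate (red) Ppara-null libraries, with bars at group means, ordered by fold change. In each member the lowest fenofibrate library is above the highest control library, but for Cyp2b9 only just (0.108 against 0.101 CPM).

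Conjugating and supporting enzymes of the list rose with the P450 genes. Gstm3, a mu-class glutathione transferase, had 81.8, 62.8 and 70.9 CPM in control and 629, 278 and 495 CPM in fenofibrate libraries. That was a log2 fold change of 2.70 (SE 0.29, adjusted p = 2.81e-05), with fenofibrate replicate 2 lowest of its group and still far above the controls. Gstm1 rose from 782, 802 and 748 CPM to 1819, 1612 and 1879 CPM (log2 fold change 1.19, SE 0.10, adjusted p = 1.00e-06). Ces2a, a carboxylesterase, rose from 199, 252 and 208 CPM to 458, 490 and 510 CPM (log2 fold change 1.15, SE 0.10, adjusted p = 3.22e-06). The mu-class genes are near-identical neighbours on chromosome 3, so their separate counts are uncertain too. Smaller or fainter rises were those of Gsta1 (log2 fold change 1.06, adjusted p = 0.0374), Gstm2 (0.79, adjusted p = 0.0244), the aldo-keto reductase Akr1b7 (2.53, adjusted p = 0.0218, at under 1 CPM in all 6 libraries), the stress gene Gadd45b (1.56, adjusted p = 0.0167) and Por, which passes electrons to microsomal P450 enzymes (0.35, adjusted p = 0.0497). Cyp2b9, Cyp3a41a, Gsta1, Gstm2 and Por each lost the call without 4 or 5 of the 6 libraries in turn. The receptors did not pass the test: Nr1i2 had a log2 difference of 0.19 (SE 0.11, adjusted p = 0.443) and Nr1i3 one of 0.23 (SE 0.13, adjusted p = 0.443). Alas1 of haem synthesis (-0.11, SE 0.15) and the exporter Abcc2 (0.17, SE 0.20) did not pass it either.

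Of 22 tested genes of the NRF2 and glutathione list 6 rose and none fell (median log2 difference 0.23, 10 higher and 1 lower at an unadjusted p below 0.05, 7 and 0 with DESeq2). The list had 4 rises without control replicate 1 and 2 in the fit of the 6 libraries alone. Its summed CPM overlapped, at 2678 to 3995 in control and 2970 to 3396 in fenofibrate libraries. NRF2 is a transcription factor that oxidants and electrophiles release to act. Gstm4, a further mu-class transferase, rose from 23.0, 16.9 and 19.3 CPM to 82.2, 62.3 and 71.3 CPM (log2 fold change 1.86, SE 0.16, adjusted p = 1.41e-06). Ephx1, the microsomal epoxide hydrolase, rose from 143, 176 and 151 CPM to 282, 288 and 279 CPM (log2 fold change 0.85, SE 0.08, adjusted p = 1.05e-05). Me1, the cytosolic malic enzyme that makes NADPH, rose by 0.94 on the log2 scale (SE 0.16, adjusted p = 0.00608), Aox1 by 0.68 (SE 0.11, adjusted p = 0.00342), Ugdh by 0.67 (SE 0.14, adjusted p = 0.019) and the haem oxygenase Hmox1 by 1.00 (SE 0.23, adjusted p = 0.0323). Gclc, which makes the rate-limiting subunit of glutathione synthesis (0.31, SE 0.12, adjusted p = 0.234), and Srxn1 (0.45, SE 0.15, adjusted p = 0.14) did not pass the test.

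The lists of fatty acid oxidation genes that PPARA controls moved little in the median. Of 29 tested peroxisomal genes 2 rose (Acaa1b and Eci2) and 1 fell (Phyh). At an unadjusted p below 0.05 the peroxisomal counts were 6 higher and 4 lower, and DESeq2 called 4 and 2. Of 20 mitochondrial genes 1 rose (Slc22a5) and none fell (4 higher and 5 lower at an unadjusted p below 0.05, 2 and 1 with DESeq2). Of 4 ketogenesis genes none was called (1 at an unadjusted p below 0.05, 0 with DESeq2). Their median log2 differences were 0.04, -0.05 and -0.10. Acaa1b, a peroxisomal thiolase that ends each round of beta-oxidation, was the exception in size. It had 128, 150 and 133 CPM in control and 367, 432 and 437 CPM in fenofibrate libraries (log2 fold change 1.59, SE 0.10, adjusted p = 3.00e-08), and its groups were well apart. In wild type liver, where 36.9% of all genes were called, Acaa1b rose by 3.66 on the log2 scale (SE 0.11). Its near-identical neighbour Acaa1a was listed at 0 in all libraries, so which of these copies the reads came from is uncertain. The rise in Ppara-null liver was smaller by 2.07 (adjusted p = 4.03e-09, interaction).

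Ehhadh, the bifunctional enzyme of the peroxisomal pathway, had 44.9, 50.2 and 55.7 CPM in control and 64.0, 61.7 and 85.5 CPM in fenofibrate libraries. All fenofibrate libraries were higher, but the log2 difference of 0.49 (SE 0.12) missed the threshold (adjusted p = 0.0503). In wild type liver the log2 fold change of Ehhadh was 6.84. Pdk4, which spares glucose by blocking pyruvate dehydrogenase, had 2.83, 3.83 and 3.34 CPM in control and 2.22, 1.71 and 3.94 CPM in fenofibrate libraries of Ppara-null liver (log2 difference -0.34, SE 0.23, adjusted p = 0.528). Its diets overlapped, whereas its log2 fold change in wild type was 7.86. Acot1, which releases fatty acids from coenzyme A, had 0.55 (SE 0.15, adjusted p = 0.0772) against 5.85 in wild type. The lipid droplet coat gene Plin2 had -0.26 (SE 0.14) against 3.17, Cidec 0.17 (SE 0.26) against 5.61, the fatty acid transporter Cd36 0.46 (SE 0.21) against 4.44 and Cpt1a -0.17 (SE 0.11) against 0.62. None of these 4 passed the test in Ppara-null liver, where the lowest of their adjusted p was 0.296. The carnitine transporter Slc22a5 rose by 0.57 (SE 0.14, adjusted p = 0.0436) and Eci2 by 0.39 (SE 0.09, adjusted p = 0.0372), and neither was called when control replicate 1, 2 or 3 was left out.

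**Figure D3:**
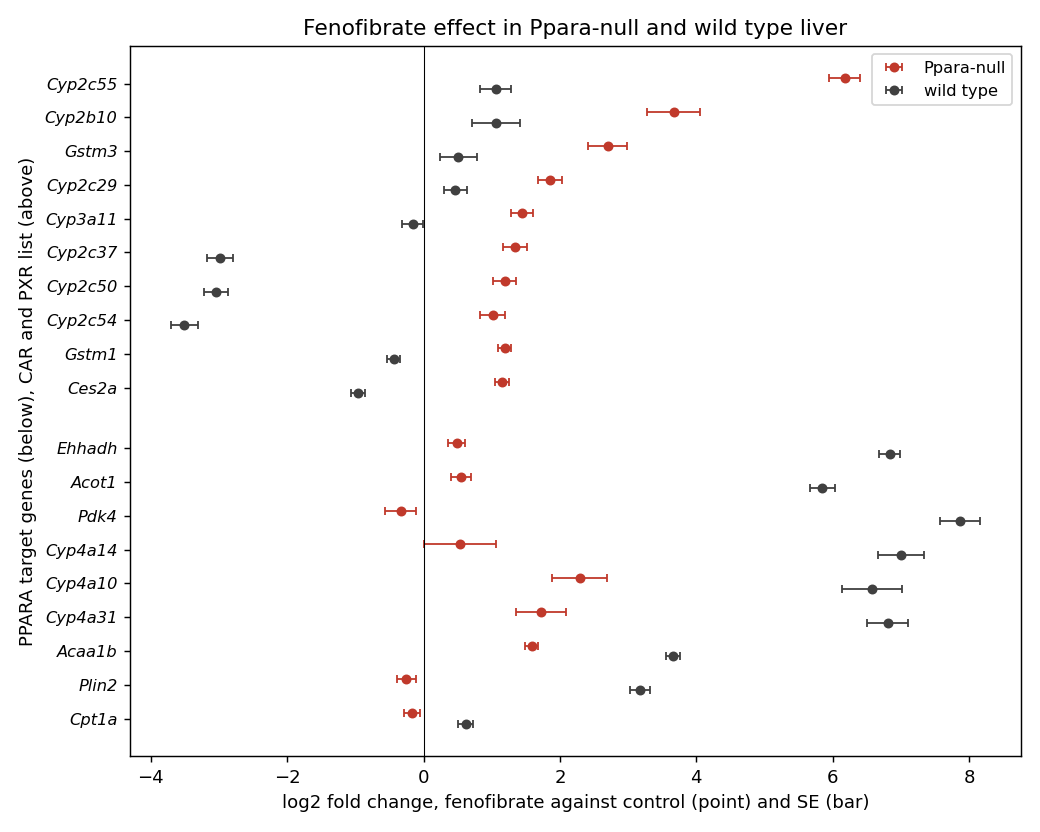
Fitted log2 fold change of fenofibrate against control, with SE bars, in Ppara-null (red) and wild type (grey) liver for 10 CAR and PXR list members (upper block) and 9 genes that PPARA controls (lower block). The red points of the upper block lie between 1.01 and 6.17. Those of the lower block lie between -0.34 (Pdk4) and 2.29 (Cyp4a10), and its grey points between 0.62 and 7.86. The upper block shows only called rises of a list of 46, of which 28 were not called (median 0.46, lowest -0.78). The lower block holds called and uncalled genes, so the gap between the red points follows in part from this choice.

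Within omega-oxidation, which starts at the far end of the fatty acid, 3 of 11 genes rose and 2 fell. The counts at an unadjusted p below 0.05 were 5 higher and 3 lower, and DESeq2 called 3 and 3. Cyp4a10, a fatty acid hydroxylase and classic PPARA target, had 1.70, 0.853 and 0.443 CPM in control and 1.97, 5.71 and 7.12 CPM in fenofibrate libraries. Fenofibrate replicate 1 was close to control replicate 1, and replicates 2 and 3 were above it (log2 fold change 2.29, SE 0.40, adjusted p = 0.0078). In wild type the level went from 86.7 to 8278 CPM in the mean, so the Ppara-null fenofibrate libraries stayed below untreated wild type. Cyp4a31, which shares sequence with Cyp4a10, had 0.257, 0.247 and 0.175 CPM and then 0.325, 0.914 and 0.989 CPM (log2 fold change 1.72, SE 0.36, adjusted p = 0.0218), and which copy the reads came from is uncertain. Cyp4a14, the third such gene, had 0.031 to 0.275 CPM in control and 0.130 to 0.295 CPM with fenofibrate, so the groups overlapped. Aldh3a2, a fatty aldehyde dehydrogenase, rose from 31.99, 35.7 and 35.8 CPM to 48.5, 49.1 and 50.4 CPM (log2 fold change 0.52, SE 0.10, adjusted p = 0.0165). The list had 1, 0 and 2 rises and no falls without control replicate 1, 2 and 3. Cyp4f14 fell by 0.53 (SE 0.12, adjusted p = 0.0363) and Cyp4v3 by 0.42 (SE 0.10, adjusted p = 0.0353).

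Of 26 tested genes of fatty acid uptake and storage 2 were called, both higher. The counts at an unadjusted p below 0.05 were 6 higher and 1 lower, and DESeq2 called 5 and 1. Lpl, a lipase that takes up lipoprotein lipid, had 1.17, 1.01 and 0.999 CPM and then 1.67, 2.10 and 2.64 CPM (log2 fold change 1.01, SE 0.24, adjusted p = 0.04). The other gene called in edgeR, Mogat1, had 0 counts in all control libraries and 3, 2 and 5 counts with fenofibrate, at or near the limit of detection.

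Fenofibrate replicate 1 stood apart from the other pools in acute phase genes. The summed CPM of the list was 13676 to 13840 in control libraries and 18459, 11843 and 10773 in fenofibrate replicates 1, 2 and 3, so replicate 1 was above all controls and the other pools below them. The list's median log2 difference was 0.12, and -0.16 without replicate 1. Of 34 tested members of that list 3 rose (Saa3, Lcn2 and Cxcl1) and 3 fell (Itih3, Serpina3m and C9). Saa1, which encodes a serum amyloid A protein made by the inflamed liver, had 22.6, 17.6 and 13.2 CPM in control libraries and 624, 12.9 and 10.9 CPM in fenofibrate replicates 1, 2 and 3. Replicate 1 stood alone, and the log2 difference of 3.60 (SE 1.08) was not called (adjusted p = 0.109). Saa2, its near-identical neighbour, was at 4.55 to 6.85 CPM in controls and at 531, 5.03 and 4.82 CPM with fenofibrate (log2 difference 4.91, SE 1.32, adjusted p = 0.0732), and the split between these copies is uncertain. Saa3 had 57.3, 2.74 and 1.75 CPM with fenofibrate against 1.10 to 2.27 CPM, Lcn2, an iron-siderophore carrier, 101, 2.24 and 1.80 CPM against 1.58 to 2.10 CPM, and the chemokine Cxcl1 5.21, 0.772 and 0.408 CPM against 0.175 to 0.432 CPM. Their log2 fold changes of 3.66, 4.28 and 2.90 had adjusted p of 0.0498, 0.044 and 0.0459. Without fenofibrate replicate 1 the log2 differences were 0.46, 0.17 and 1.06 (adjusted p = 0.667, 0.862 and 0.302), and those of Saa1 and Saa2 were -0.58 and -0.29. The innate immune receptor gene Tlr2 followed the same order, with 6.29, 0.620 and 0.546 CPM against 0.385 to 0.402 CPM, and its call was also lost without that library (adjusted p = 0.197).

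Fenofibrate replicate 1 was set apart in few genes. Among 6144 genes that reached 5 CPM in a fenofibrate library, 14 were at least 4-fold above the mean of the other replicates and 2 as far below, while replicate 2 had 0 above and 9 below and replicate 3 had 6 above and 10 below. Without replicate 1 the comparison gave 218 calls (159 higher, 59 lower), of which 135 were among the 220. The CAR and PXR list then had 13 rises. The levels of Cyp2c55, Cyp2b10 and Gstm3 in replicate 1 were the highest of the 3 fenofibrate pools, as was that of Saa1, and the part of the acute phase in those levels was not tested.

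**Figure D4:**
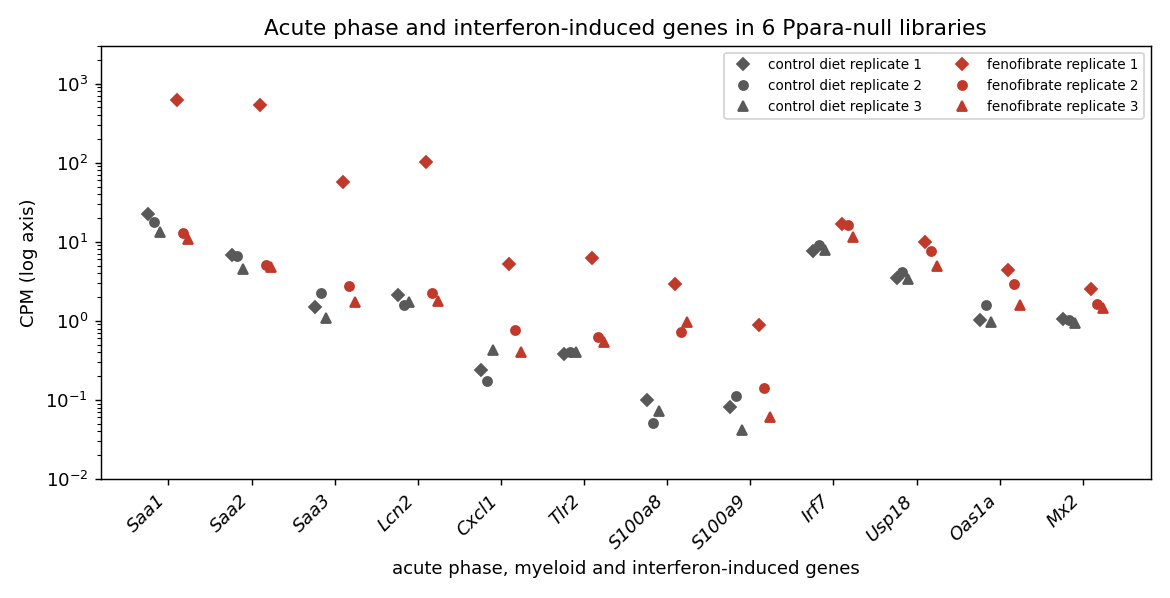
CPM (log axis) of acute phase, myeloid and interferon-induced genes in each of the 6 Ppara-null libraries, with diamonds for replicate 1, circles for replicate 2 and triangles for replicate 3. Fenofibrate replicate 1 lies at 624 CPM for Saa1 and 101 CPM for Lcn2, apart from the other 5 libraries, while for Irf7 all 3 fenofibrate libraries lie above the controls.

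The 3 acute phase falls went the other way in all pools. Serpina3m, a serine protease inhibitor, went from 904, 708 and 1005 CPM to 564, 451 and 519 CPM (log2 fold change -0.77, SE 0.16, adjusted p = 0.0187). C9, a pore-forming complement component, went from 260, 259 and 250 CPM to 176, 143 and 123 CPM (log2 fold change -0.80, SE 0.15, adjusted p = 0.0118). Itih3, an inter-alpha-trypsin inhibitor chain, fell by 0.54 (SE 0.08, adjusted p = 0.00265). In none of them did the groups overlap, and without fenofibrate replicate 1 the list had 8 falls and no rises. The list had no rises either without control replicate 1, 2 or 3, and DESeq2 with all libraries called 4 rises and 3 falls. The falls were fewer in other alternatives: 1 without control replicate 1, 2 on library totals and 0 in the fit of the 6 libraries alone.

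Of 21 interferon-induced genes 5 rose and none fell (median log2 difference 0.61, 15 higher and 0 lower at an unadjusted p below 0.05, 6 and 0 with DESeq2). Irf7, a transcription factor of the interferon response, rose from 7.54, 8.99 and 7.98 CPM to 16.7, 16.3 and 11.6 CPM (log2 fold change 0.86, SE 0.16, adjusted p = 0.013). Usp18, which damps interferon signalling, rose from 3.51, 4.10 and 3.34 CPM to 10.04, 7.63 and 4.99 CPM (log2 fold change 1.05, SE 0.20, adjusted p = 0.0114). Oas1a rose by 1.32 (SE 0.32, adjusted p = 0.0437), Mx2 by 0.90 (SE 0.22, adjusted p = 0.044) and Stat2 by 0.63 (SE 0.15, adjusted p = 0.0465). In all 5 genes fenofibrate replicate 1, the library with high Saa counts, was highest. The list had 2 rises without replicate 1 and none without control replicate 1 or 3 or in the fit of the 6 libraries alone.

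S100a8, a calcium-binding protein gene of neutrophils and monocytes, had 0.101, 0.0514 and 0.0721 CPM in control and 2.95, 0.731 and 0.963 CPM in fenofibrate libraries. All fenofibrate pools were above the controls, replicate 1 most (log2 fold change 4.33, SE 0.62, adjusted p = 0.00122), and without replicate 1 the log2 fold change was 3.47 (adjusted p = 0.00361). It was the 1 called marker of 6 tested for infiltrating myeloid cells, whose summed CPM was 9.49 to 9.67 in control and 8.35 to 16.6 in fenofibrate libraries. Its partner S100a9 had 0.899, 0.142 and 0.0607 CPM with fenofibrate against 0.041 to 0.113 CPM and was not called (adjusted p = 0.133), and Ly6g had 0 counts in all 6. The 12 Kupffer cell markers gave no call (1 at an unadjusted p below 0.05, 0 with DESeq2), with summed CPM of 95.9 to 108 in control and 88.1 to 131 in fenofibrate libraries. Lyve1 was the 1 called marker of 10 for endothelium (log2 fold change 1.12, SE 0.25, adjusted p = 0.0287), with all Ppara-null libraries at or below 1.04 CPM. The part of other cell types in the rises above was not tested.

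Some lipoprotein genes were lower with fenofibrate. Of 19 lipoprotein genes 4 fell and none rose (median log2 difference -0.25, 9 lower and 0 higher at an unadjusted p below 0.05, 6 and 0 with DESeq2). Apoa1, the main protein of high-density lipoprotein, went from 3542, 4014 and 3391 CPM to 2358, 2835 and 2082 CPM (log2 fold change -0.59, SE 0.13, adjusted p = 0.0218). Apoa5, which promotes triglyceride clearance, fell by 0.56 (SE 0.13, adjusted p = 0.0353), Apoe by 0.43 (SE 0.10, adjusted p = 0.0348) and the receptor of high-density lipoprotein Scarb1 by 0.42 (SE 0.08, adjusted p = 0.0113). In all 4 the groups were apart, as they were in 9 of the 19 (fenofibrate below), against 8.03% of all genes. The list had 1 fall without control replicate 1, none without control replicate 2, and none on library totals or in the fit of the 6 libraries alone. These falls went with the lower summed level of the hepatocyte markers given above, and the part of that difference in them was not tested.

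Of 21 tested hepatokine and IGF genes 3 fell and none rose (8 lower and 0 higher at an unadjusted p below 0.05, 3 and 0 with DESeq2), and these falls too were not called on library totals. Leaving out any 1 library gave 1 fall, except fenofibrate replicate 2, without which there were 6. Ghr, the growth hormone receptor, went from 210, 234 and 228 CPM to 151, 161 and 160 CPM (log2 fold change -0.51, SE 0.08, adjusted p = 0.00322). Igf1, the growth factor that growth hormone induces in liver, went from 146, 149 and 152 CPM to 111, 115 and 108 CPM (log2 fold change -0.42, SE 0.10, adjusted p = 0.0403). Ahsg (fetuin-A) fell by 0.41 (SE 0.10, adjusted p = 0.0492). The pools of Ghr and Igf1 were tight and apart. Trf, the iron carrier transferrin, fell by 0.45 (SE 0.09, adjusted p = 0.0185).

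Among the largest falls Hsd3b3, a steroid dehydrogenase, had 72.8, 48.9 and 44.3 CPM in control and 28.9, 18.8 and 20.9 CPM in fenofibrate libraries (log2 fold change -1.27, SE 0.19, adjusted p = 0.00176). Mug1, a murinoglobulin protease inhibitor of plasma, went from 3407, 3085 and 2937 CPM to 1343, 2024 and 1990 CPM (log2 fold change -0.82, SE 0.17, adjusted p = 0.0216), and the related Mug2 fell by 1.35 (SE 0.33, adjusted p = 0.0446). Fenofibrate replicate 1 was lowest for both, and both calls were lost without it (adjusted p = 0.0667 for Mug1 and 0.117 for Mug2). Dmgdh, a mitochondrial enzyme of choline breakdown, fell by 0.67 (SE 0.09, adjusted p = 2.94e-04) and Pigr, which carries immunoglobulin A into bile, by 0.63 (SE 0.11, adjusted p = 0.00807). Both kept their call without any 1 of the 6 libraries, as 36 of the 220 genes did (25 higher, 11 lower).

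**Figure D5:**
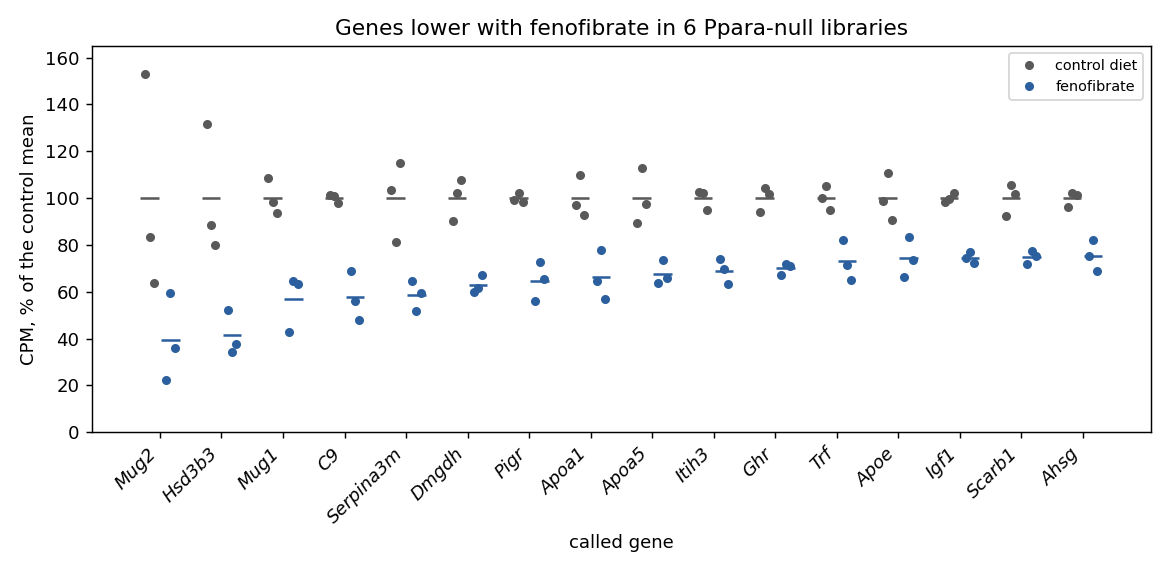
CPM of 16 called genes in each control (grey) and fenofibrate (blue) Ppara-null library as a percentage of the control mean, with bars at group means. For each gene the highest fenofibrate library lies below the lowest control library, by a wide gap for Ghr, Igf1 and Itih3 and a narrow one for Mug2.

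Several rises belonged to none of these groups. Csad, which makes the taurine precursor hypotaurine, went from 37.4, 46.9 and 41.6 CPM to 166, 108 and 104 CPM (log2 fold change 1.59, SE 0.18, adjusted p = 5.66e-05). Dlec1 went from 6.59, 7.54 and 6.15 CPM to 16.97, 25.3 and 20.8 CPM (log2 fold change 1.64, SE 0.13, adjusted p = 7.50e-07). Its locus overlaps the end of that of Acaa1b on the opposite strand, and the strand setting of the counts is not given. Acaa1b rose by 1.59 on the log2 scale here and by 3.66 in wild type, where Dlec1 rose by 3.60. Which of these genes the Dlec1 reads came from is therefore uncertain. Csad and Dlec1 kept their call under all 12 alternatives that were set beside the fit gene by gene. So did 15 genes in all, 8 of them in the CAR and PXR list and all of them rises. Mlxipl, which encodes the glucose-responsive factor ChREBP, had 16.8, 14.7 and 19.3 CPM in control and 28.5, 33.1 and 59.1 CPM in fenofibrate libraries (log2 fold change 1.25, SE 0.21, adjusted p = 0.00608), and was the 1 called gene of 20 in the lipogenesis list. Scd1 had 213, 148 and 596 CPM against 120 to 147 CPM and was not called (adjusted p = 0.0927). The proliferation marker Mki67 rose by 1.62 (SE 0.34, adjusted p = 0.0215) at or below 1.02 CPM, and it and E2f8 were the 2 called genes of 31 in the cell cycle list, against 13 at an unadjusted p below 0.05 and 6 with DESeq2.

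Histone gene Hist1h2bb had 0.156, 0.247 and 0.144 CPM in control and 6.62, 7.40 and 4.03 CPM in fenofibrate libraries (log2 fold change 5.04, SE 1.04, adjusted p = 0.019), and Hist1h2bk rose by 1.78 (SE 0.31, adjusted p = 0.00759). Ppara-null livers on Wy14,643 had log2 differences of 4.24 and 1.36 in these genes against the same controls, neither of them called (adjusted p = 0.0845 and 0.0654). Their Hist1h2bb levels were 4.53, 0.133 and 5.65 CPM, so 1 pool was as low as the controls. In wild type livers Hist1h2bb was at 3.72 to 5.34 CPM on the normal diet, and 1 Wy14,643 pool was at 0.192 CPM, so low libraries were not confined to the Ppara-null controls. Histone genes have near-identical copies and mostly lack poly(A) tails, so these counts are uncertain. The long noncoding RNA Neat1 of nuclear paraspeckles rose from 3.25, 2.34 and 4.798 CPM to 8.999, 13.2 and 10.6 CPM (log2 fold change 1.66, SE 0.38, adjusted p = 0.0323).

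In 10 of 26 pathway lists no member was called: ketogenesis, AHR targets, cholesterol synthesis, bile acids, amino acids and urea, the circadian clock, ER stress, cytosolic heat shock, male-biased liver genes and nuclear receptors. These held 154 tested genes, of which 35 had an unadjusted p below 0.05 and DESeq2 called 10, where 2165 and 523 of all 14241 genes did. Male-biased genes leaned lower, with a median log2 difference of -0.43 over 9 tested. Of the 9, 5 were lower and 0 higher at an unadjusted p below 0.05, and DESeq2 called 3 lower and 0 higher. In 6 of the 9 the fenofibrate libraries lay below the control libraries, against 8.03% of all genes. Their summed CPM was 2499 to 2845 in control and 1548 to 1781 in fenofibrate libraries. On library totals, and in the fit of the 6 libraries alone, 1 was called lower. Ppara-null livers on Wy14,643 also had a negative median in these 9 genes against the same controls (-0.34). Their summed CPM was 1991, 1497 and 2053, and no member was called between fenofibrate and Wy14,643. Female-biased genes had a median log2 difference of -0.36 with fenofibrate over 8 tested. Of these 1 was called higher, and 2 were higher and 1 lower at an unadjusted p below 0.05. Cyp7a1, the rate-limiting enzyme of bile acid synthesis, had 104, 28.9 and 29.7 CPM with fenofibrate against 42.7 to 52.7 CPM (log2 difference 0.14, SE 0.38, adjusted p = 0.91), high in replicate 1 and low in the other pools.

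The Ppara-null and wild type comparisons share no library, so their calls can be set against each other. Of the 142 rises in Ppara-null liver 57 (40.1%) rose in wild type, where 19.3% of all genes did, 25 (17.6%) fell, and 60 were not called. Those 57 were 2.07% of the 2748 wild type rises. Of the 78 falls 64 (82.1%) also fell in wild type, where 17.6% of all genes did, 3 rose and 11 were not called, and the 64 were 2.55% of 2505 wild type falls. The 2 effects differed by the interaction test in 81 of the rises and 45 of the falls, and in 3178 (22.3%) of all genes (1523 higher and 1655 lower in Ppara-null liver). On library totals the wild type median shifted by 0.81 on the log2 scale and that of the interaction by -0.77, with 10002 rises and 394 falls in wild type and 266 higher and 7166 lower interactions, so the genotype values here are relative to the TMM scale. The rises and falls were chosen by the Ppara-null effect, which is part of the interaction, so their counts are a description. The 25 rises that fell in wild type were among those 81.

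Within the CAR and PXR list the interaction was called higher in Ppara-null liver for 20 of 46 members and lower for 5 (10.7% and 11.6% of all genes). Cyp2c55 rose in wild type by 1.06 on the log2 scale, or 5.12 less than in Ppara-null liver (adjusted p = 1.38e-09), and averaged 1.55 CPM in treated wild type against 63.8 ± 12.1 CPM in treated Ppara-null livers (SD, n = 3). Cyp2c37, Cyp2c50 and Cyp2c54 fell in wild type by 2.98, 3.04 and 3.51, and their interactions were 4.33, 4.23 and 4.52 (the largest adjusted p was 9.93e-10). Gstm1 fell in wild type by 0.43 and Ces2a by 0.96, while Cyp3a11 had -0.16 there (SE 0.15, adjusted p = 0.45). The reverse order held for Gadd45b, which rose by 4.54 in wild type. Of the interferon list 16 of 21 members had a called interaction, all higher in Ppara-null liver, and 12 fell in wild type. Of the acute phase list 19 of 34 did, and 18 fell in wild type.

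Wy14,643, the other agonist of the series, was given at 0.1% and fenofibrate at 0.5% of the diet, so the doses differ. In Ppara-null liver Wy14,643 changed 34 (0.239%) of genes against the same 3 control libraries that the fenofibrate comparison uses. Fenofibrate differed from Wy14,643 directly in 411 (2.89%) of genes, 226 (1.59%) higher and 185 (1.3%) lower. On library totals, which moved the median gene by 0.39, that was 4045 higher and 26 lower, and for Wy14,643 against control (median shift -0.35) it was 24 higher and 2956 lower. This comparison and that with the control diet share the 3 fenofibrate libraries. Cyp2c55 had a log2 difference of -0.26 with Wy14,643 against control (adjusted p = 0.63), Cyp2b10 one of 0.97 (adjusted p = 0.24), Cyp2c29 one of -0.44 (adjusted p = 0.27) and Cyp3a11 one of -0.29 (adjusted p = 0.40). Set directly against Wy14,643, fenofibrate livers were higher in Cyp2c55 by 6.43 (SE 0.24), in Cyp2b10 by 2.70 (SE 0.37), in Cyp2c29 by 2.29 (SE 0.18) and in Cyp3a11 by 1.73 (SE 0.16), the largest adjusted p being 5.43e-04. In all, 23 of the 46 CAR and PXR list members were higher with fenofibrate than with Wy14,643 and none lower. Acaa1b had 0.09 with Wy14,643 (adjusted p = 0.70) and was higher with fenofibrate by 1.499 (adjusted p = 4.92e-08). C9 and Serpina3m were lower with fenofibrate than with Wy14,643 by 0.95 and 1.02 (adjusted p = 0.00196 and 0.00174). Not all changes were called against Wy14,643: of the 142 rises 79 were called higher, and of the 78 falls 37 lower. Hmox1, Por and Stat2 had log2 differences of 0.93, 0.30 and 0.51 with Wy14,643 against control, none called (adjusted p = 0.0822, 0.128 and 0.151). Between fenofibrate and Wy14,643 these genes differed by 0.07, 0.045 and 0.12 (adjusted p = 0.924, 0.86 and 0.766).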

How the data were processed

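Read counts per locus were deposited by the authors for 18 liver RNA-seq libraries. Per the submitters' processing notes they used bcl2fastq 2.17, Trimmomatic 0.30, TopHat2 2.0.8, Picard 1.84 and build mm10. No source used here gives the counting tool or its strand setting. Of 52463 loci 31099 had a gene identifier, and 12 blank or total rows were left out. A further 5 columns of reads had names of no listed sample and were left aside. Totals per library were 68.9 to 150.7 M (M, 1e6).

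All 18 libraries in 6 groups were fitted together with edgeR 4.0.16 (R 4.3.3; TMM scaling, quasi-likelihood test, low-count filter, Benjamini-Hochberg adjustment over 14241 genes, threshold 0.05). The biological coefficient of variation was 0.14, on 12 residual degrees of freedom. Fold changes use a prior count of 0.125. Each SE is the absolute log2 fold change divided by the square root of the F statistic of the quasi-likelihood test. An exact permutation test of 3 against 3 libraries cannot go below p = 0.1, so none is given. Alternatives were other scalings, DESeq2 1.42.0, no filter, no Mup loci, a replicate block, a sample sheet term, a 1.5-fold test, the compared groups alone and leaving out each library.

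The comparison, members and lists were chosen with earlier results of these data known. Genes were named by rule: the 15 largest non-overlapping called rises and falls at 5 CPM or more, up to 4 members of each list with the smallest p, fixed liver genes, the genes furthest apart in fenofibrate replicate 1, and the largest interaction and Wy14,643 differences. The text describes a selection of these. The other called list members were added after their values were seen. Results on some genes are not reported here.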

Additional observations from a re-analysis of the deposited data

Results flagged for a closer look

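The effect of fenofibrate differed between the genotypes, by the interaction test at an adjusted p below 0.05, for 58 of 76 genes examined in both genotypes. Some of these were chosen for their interaction or for their change in Ppara-null liver, so the count is a description. Over all genes tested the share with a called interaction was 22.3%. The values in parentheses are the log2 fold change in Ppara-null liver minus that in wild type liver, with 3 libraries in each of 4 groups. The difference was above 0 for genes that rose more, or fell less, in Ppara-null liver. Some of them were lower in both genotypes: Cyp2c70, for one, had -0.40 in Ppara-null (not called, adjusted p = 0.313) and -5.04 in wild type liver. The largest of these were Saa2 (10.71), Saa1 (8.60), Saa3 (6.42), Cyp2c55 (5.12), Cxcl1 (4.91), Hist1h2bb (4.81), S100a8 (4.79) and Cyp2c70 (4.63). Next came Cyp2c54 (4.52), Cyp2c37 (4.33), Cyp2c50 (4.23), Lcn2 (4.03), Akr1b7 (3.26), Cyp2b13 (3.24), Cyp4f14 (3.08) and Mx2 (2.81). They were followed by Cyp2b10 (2.60), Irf7 (2.58), Gstm3 (2.19), Ces2a (2.10), Oas1a (2.00), C9 (1.95), Gstm2 (1.91) and Usp18 (1.83). Smaller ones were Mki67 (1.68), Gstm1 (1.62), Cyp3a11 (1.60), Trf (1.49), Mug2 (1.43), Ahsg (1.42), Cyp2c29 (1.38) and Hist1h2bk (1.28). The last were Hmox1 (1.24), Mug1 (1.23), Ghr (1.04), Igf1 (0.91), Mlxipl (0.89), Stat2 (0.73) and Cyp4v3 (0.56). Saa1, Saa2, Saa3, Lcn2 and Cxcl1 were high in fenofibrate replicate 1 of the Ppara-null group alone, and their interaction values without that library are not given here.

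The difference was below 0 for genes that rose more, or fell less, in wild type liver. The largest of these were Pdk4 (-8.20), Acot2 (-6.58), Cyp4a14 (-6.47), Ehhadh (-6.35), Cidec (-5.44), Acot1 (-5.30), Cyp4a31 (-5.08) and Cyp4a10 (-4.29). Next came Cd36 (-3.98), Plin2 (-3.43), Gadd45b (-2.98), Aldh3a2 (-2.91), Slc22a5 (-2.63), Acaa1b (-2.07) and Dlec1 (-1.96). The last were Me1 (-1.73), Lpl (-1.61), Eci2 (-1.23) and Cpt1a (-0.79).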

How the results depend on the processing

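Among 211 named genes none of the called ones changed sign under any alternative run. Of 36 list medians, which carry no call, 11 had another sign in at least 1 alternative, among them acute phase (0.12, and -0.16 without fenofibrate replicate 1), cholesterol synthesis (0.23, and -0.07 without it) and peroxisomal oxidation (0.04, and -0.03 without control replicate 2). The 220 calls for fenofibrate in Ppara-null liver became 523 with DESeq2, 95 on library totals, 33 with the compared groups alone (28 shared), 134 with a term for the sample sheet numbers and 16 in the 1.5-fold test, and 54 to 482 without 1 library. Fenofibrate against Wy14,643 (411) gave 743, 4071, 47, 273 and 34 under the same alternatives, and 206 to 730 without 1 library. Wy14,643 against control (34) gave 284 with DESeq2, 2980 on library totals, 67 with the compared groups alone, 73 with no filter and 0 in the 1.5-fold test (172 at an unadjusted p below 0.05 in edgeR; no DESeq2 count of that test was made), and 4 to 45 without 1 library. The interaction (3178) gave 7432 on library totals and 871 in the 1.5-fold test, with 2638 to 3299 without 1 library, and wild type fenofibrate (5253) gave 10396 and 1532, with 4389 to 4744. The cause of these moves was not tested, except that fewer libraries and a larger minimum change are part of the alternatives. DESeq2 size factors (221), no filter (243) and no Mup loci (228) left the 220 within 1.5 times.

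Replicate numbers were not taken as pairs: same-numbered fenofibrate and control deviations correlated at 0.0918, 0.106 and 0.0917, not all over 0.1. With the replicate block 201 genes were called, 186 of them shared. Each fenofibrate library correlated best with its own number, which is a hint from the data and not from the design. Genes under about 1 CPM, such as Mogat1, Cyp2b9 and Akr1b7, are limited by depth.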
